A study of Mus musculus with 4 samples.

Results

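The genes of the mitochondrial carrier family were examined in a map of Fos binding in mouse colonic epithelium. Members were the protein-coding genes of the mm10 gene table with a symbol beginning Slc25a, of which there were 47 among 21627 coding genes (19 autosomes and X). For each of them the summits of Fos signal were taken in 3 places, at a gene boundary (within 1 kb of either end), inside the gene, and within 50 kb of its span. The map came from CUT&Tag, in which an antibody against a nuclear protein brings the transposase Tn5 to its sites, where the enzyme cuts and tags the DNA. Of the 4 libraries, 2 were from healthy wild-type mice and 2 from wild-type mice that had recovered from colitis. The recovered mice had been given DSS, a sulfated dextran that damages the gut lining, at 1 to 1.5% for 3 cycles of 7 days with 10 days between them, and were examined 22 days after the last cycle. All libraries were of scraped colonic mucosa and carried 1 batch label, and the sources used here do not give the age of the mice. The stated aim was to locate Fos in both tissues and to set its sites against computed predictions.

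The carriers are small proteins of the inner mitochondrial membrane, built from a repeated pair of membrane helices, that exchange metabolites between the cytosol and the matrix. They move ADP, ATP, phosphate, carboxylic acids, amino acids, acylcarnitines, cofactors and iron, and so link glycolysis, fatty acid oxidation, the urea cycle and heme synthesis to respiration. Colonocytes draw much of their energy from mitochondrial oxidation of butyrate. Fos is a leucine zipper protein that binds DNA as a partner of Jun proteins in the AP-1 complex, usually at the sequence TGACTCA, and is induced by growth signals and injury.

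The peak list analysed was deposited for the series, held 178981 summits and had no column for single libraries. Which of the 4 libraries entered it is not stated. Values therefore carry no replicate error, healthy and recovered mice could not be compared, and signal in few cells cannot be told apart from weaker signal in all. The strength of a summit is given as the fold over background recorded by the authors, and as the pileup, the number of DNA fragments that overlap it, which was recovered from that fold. Intervals in parentheses after a pileup are exact 95% Poisson intervals and cover counting error only. Over the list the median fold was 6.73 and the median pileup 27 fragments, within a range of 10 to 2791. A gene without a summit is thus a gene where no summit passed the authors' threshold. Markers of the labelled tissue were present, with a boundary summit at 11 of 11 epithelial marker genes. Such a summit was at 1 of 6 leukocyte (Itgam, fold 104), 2 of 4 fibroblast, 0 of 3 endothelial and 1 of 3 neuronal marker genes, beside 62.0% of all genes. The mere presence of a distal summit did not set the lists apart in this way, with 84.0% of all genes having one. It was found at 11 of 11 epithelial, 5 of 6 leukocyte, 4 of 4 fibroblast, 3 of 3 endothelial and 3 of 3 neuronal marker genes, with a fold of up to 190 at the endothelial gene Cdh5. Their number did differ, with a median of 44 at epithelial, 8 at leukocyte, 7.5 at fibroblast, 17 at endothelial and 14 at neuronal marker genes, against 10 at all genes. No library without the Fos antibody was used here, so the part of the signal that Tn5 gives at open chromatin without Fos was not measured.

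Most carrier genes had Fos signal at a boundary. Of the 47 genes, 41 (87.2%) had a summit at a boundary, against 62.0% of all protein-coding genes. The number of boundary summits at a gene with any ran from 1 to 7. A boundary fold of at least 50 was reached by 19 of the 47, against 17.7% of all genes, and a fold of at least 100 by 9, against 5.94%; both limits are round numbers chosen after the values were seen. Among genes with a boundary summit, the median of the strongest fold was 48.1 in the carriers and 27.4 in all genes. The comparison with all genes is not matched on gene activity. In 6 of the 41 genes the strongest boundary summit was also at a boundary of another protein-coding gene, so it cannot be assigned to 1 of them. These were Slc25a41 with Khsrp, Slc25a32 with Dcaf13, Slc25a40 with Dbf4, Slc25a27 with Cyp39a1, Slc25a11 with Rnf167, and Slc25a22 with Pidd1.

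**Figure D1:**
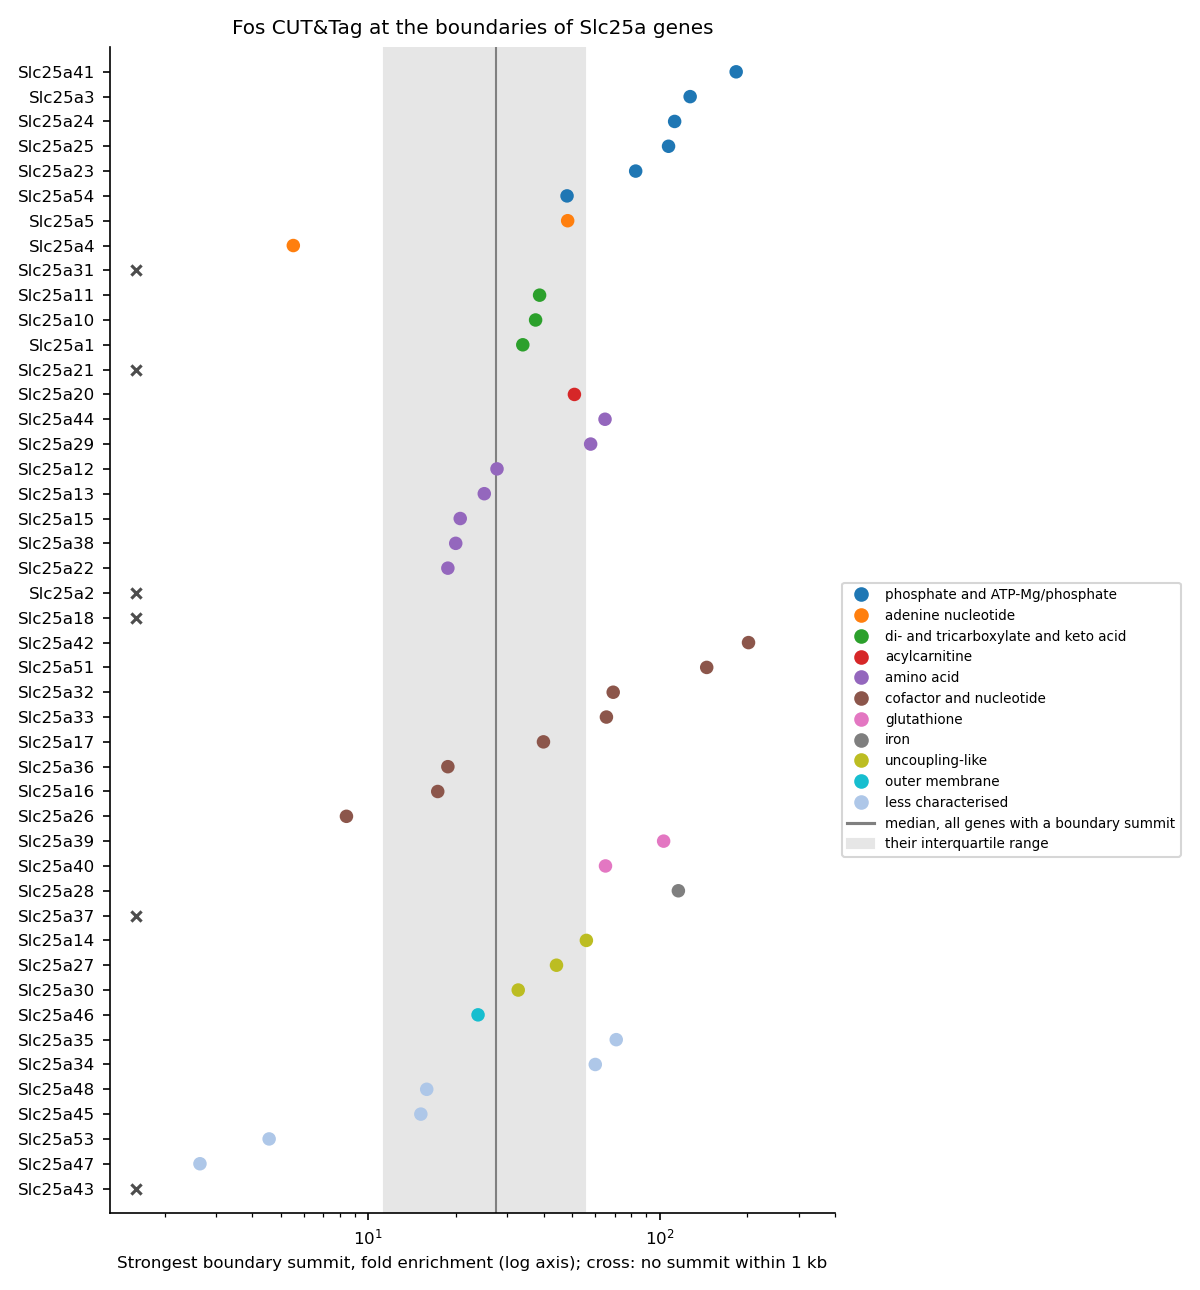
Strongest boundary summit of 46 of the 47 Slc25a genes as fold enrichment on a log axis, 1 point per gene. Colours give the substrate its product carries, or the group uncoupling-like, outer membrane or less characterised. A cross marks a gene with no summit within 1 kb of either end, and 1 gene with a boundary summit that is not reported singly is not drawn. The line and band give the median (27.4) and interquartile range (11.3 to 55.6) of all protein-coding genes with a boundary summit. Carriers of phosphate lie between 48.1 and 183, and 6 genes carry a cross.

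Carriers of phosphate and of ATP-Mg had a median boundary fold of 110, the highest of the substrate groups with more than 2 genes. All 6 had a boundary summit (62.0% of all genes) and 5 a fold of at least 50 (17.7%). Slc25a3, the phosphate carrier that supplies the ATP synthase, reached a boundary fold of 127 with 528 fragments (484 to 575), 149 bp above its upper end. Its other 3 boundary summits had folds of 16.4, 11.5 and 3.85, so 1 summit stood well above the rest. The ATP-Mg/phosphate carriers, which set the adenine nucleotide content of the matrix, are encoded by Slc25a23, Slc25a24, Slc25a25 and Slc25a41. Slc25a24 reached a fold of 113 with 467 fragments (426 to 511), 766 bp inside the gene, and Slc25a25 reached 107 with 445 fragments (405 to 488). Slc25a23 had a fold of 82.7 with 343 fragments (308 to 381). The summit of Slc25a41, with a fold of 183 and 760 fragments (707 to 816), lay 947 bp from that gene. It was nearer to a boundary of Khsrp, at 318 bp, which encodes an RNA-binding protein. Slc25a54, a close relative of Slc25a24, had a fold of 48.1 at its end and no summit within 1 kb of its start of transcription. Slc25a24 and Slc25a54 are neighbours, 6567 bp apart on chromosome 3, and shared 26 summits of the 29 and 39 in their windows. Slc25a23 and Slc25a41, 2057 bp apart on chromosome 17, shared 30 of 38 and 35. The values of neighbours are therefore not independent.

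The strongest summit of the entire list was in the flank of Slc25a25. The gene spans positions 32414487 to 32451470 on the minus strand of chromosome 2 and had 73 summits in 37 regions, 4 at its boundaries, 25 inside it and 44 in its flanks. The strongest, at 32471174, had 2791 fragments (2688 to 2897) and a fold of 672, and the next strongest summit anywhere had a fold of 532. It lay 19704 bp upstream of Slc25a25 in a region 2281 bp wide that overlapped no annotated gene. Its nearest protein-coding gene was Naif1, at 15698 bp, and a second summit in the same region had a fold of 154. The site was not checked against a list of regions prone to artefacts, and read placement there was not tested. Inside Slc25a25 the summit at 32428500 had a fold of 165 with 684 fragments (634 to 737). At the upstream end, a pair of summits 191 and 681 bp before the gene had folds of 107 each, within the span of Naif1, which overlaps the upstream end of Slc25a25. Of the 73 summits, 10 had a fold of at least 50 and 5 of at least 100. Summits at 18219 to 18775 bp beyond the other end, with folds of 51.7 to 85.6, lay at or near the gene Ptges2.

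**Figure D2:**
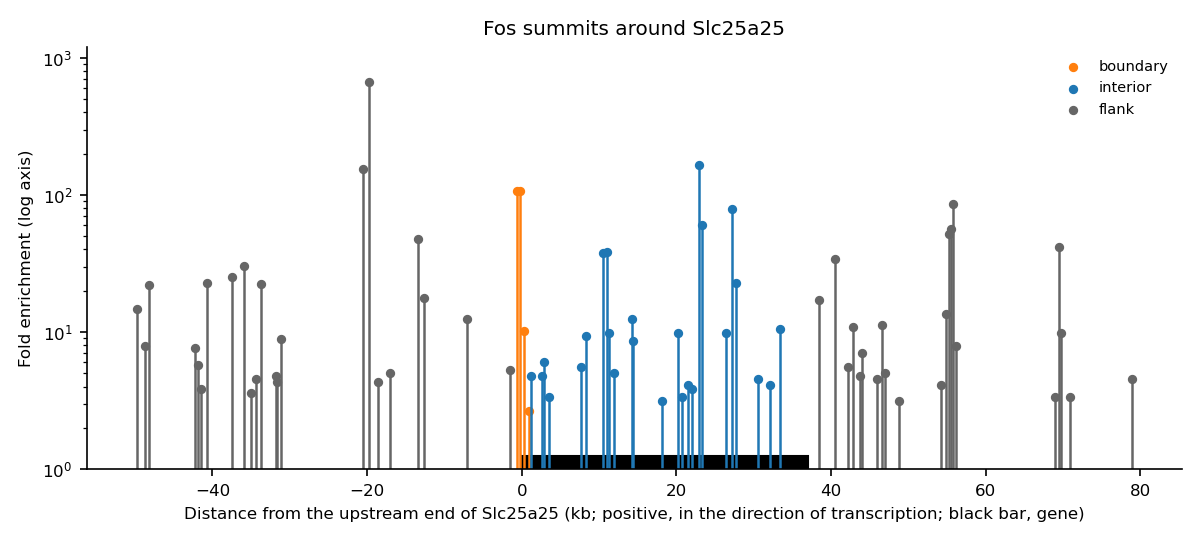
Fos summits in the window of Slc25a25, 1 stem per summit, with the distance from the upstream end of the gene in kb on the horizontal axis and fold enrichment on a log axis on the vertical. Orange stems are boundary summits, blue stems lie inside the gene (black bar) and grey stems in its flanks. The tallest stem, fold 672, stands 19704 bp upstream.

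RefSeq lists 3 starts of transcription for Slc25a25, and the promoters that follow are shown because summits lay in them. At the innermost start, position 32424066, the strongest of 3 summits had a fold of 78.7 and lay 191 bp upstream. The 250 bases before it, chr2:32424067-32424316 on the minus strand of GRCm38.p6, held the cyclic AMP response element TGACGTCA, which is given in capitals and begins 150 bases before the start. CREB and ATF proteins bind this element, as do some Fos, Jun and ATF pairs. The only other carrier promoter with this element was that of Slc25a36 (chr9:97111042-97111291, minus strand), where it begins 161 bases before the start and the summit, with a fold of 18.8, lay 204 bp upstream. The AP-1 element TGACTCA was found in a single carrier promoter, that of Slc25a13 (chr6:6217174-6217423, minus strand), on the reverse strand at 130 bases before the start. The only summit at that start had a fold of 25.0 and lay 123 bp upstream, beside the element.
Slc25a25: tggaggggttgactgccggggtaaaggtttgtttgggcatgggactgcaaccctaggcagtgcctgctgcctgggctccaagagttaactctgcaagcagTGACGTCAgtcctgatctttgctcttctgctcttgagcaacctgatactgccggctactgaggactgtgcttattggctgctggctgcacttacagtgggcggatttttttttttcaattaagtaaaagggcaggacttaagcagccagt
Slc25a36: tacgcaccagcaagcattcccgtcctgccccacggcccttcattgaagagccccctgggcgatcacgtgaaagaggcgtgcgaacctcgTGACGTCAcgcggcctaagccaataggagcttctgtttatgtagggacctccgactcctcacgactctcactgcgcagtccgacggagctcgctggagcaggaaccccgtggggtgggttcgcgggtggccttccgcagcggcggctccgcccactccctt
Slc25a13: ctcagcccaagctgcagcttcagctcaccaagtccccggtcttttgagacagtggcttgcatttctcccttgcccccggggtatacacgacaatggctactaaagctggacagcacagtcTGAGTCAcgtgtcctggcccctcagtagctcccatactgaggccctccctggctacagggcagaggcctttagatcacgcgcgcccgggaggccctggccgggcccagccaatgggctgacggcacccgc

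Among the adenine nucleotide carriers, which exchange ADP for ATP, the 3 genes had very different signal. Slc25a5 (Ant2) had 6 boundary summits, the strongest with a fold of 48.3 and 200 fragments (173 to 230) 53 bp after its start. Slc25a4 (Ant1), the form of heart and skeletal muscle, had a strongest boundary fold of 5.53 with 22 fragments (13.8 to 33.3). The testis form, Slc25a31 (Ant4), had no boundary summit, and the strongest of its 5 distal summits had a fold of 33.7 in the neighbouring gene Hspa4l. The pileup intervals of Slc25a5 and Slc25a4 do not overlap. The gene table also lists a pseudogene copy, Slc25a5-ps. How reads shared between copies were placed is not stated.

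Carriers of di- and tricarboxylates were close to each other in strength. Slc25a1, the citrate carrier that feeds cytosolic lipid synthesis, had 33.9 as its boundary fold, with 140 fragments (118 to 165). Slc25a10, the dicarboxylate carrier, had 37.5 with 155 fragments (132 to 181), and Slc25a11, the oxoglutarate carrier of the malate-aspartate shuttle, had 38.7 with 160 fragments (136 to 187). The 3 pileup intervals overlap. Slc25a10 had 7 boundary summits, shared with Slc25a35 as the most of any carrier, and equal folds of 36.8 at 350 bp before and 128 bp after its start, while its strongest summit lay 538 bp inside its end. Slc25a21, which carries oxoadipate, had no boundary summit and was the longest member, at 485 kb. It had 12 interior summits, or 0.248 per 10 kb, with folds of up to 29.6. Slc25a20, the carnitine-acylcarnitine carrier that brings fatty acids to oxidation, reached 51.0 with 211 fragments (183 to 241), 11 bp after its start, and 24 distal summits.

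Amino acid carriers had boundary summits at 7 of 9 genes, or 77.8%, a share whose 95% Wilson interval (45.3 to 93.7%) includes the 62.0% of all genes. The strongest was Slc25a44, a carrier of branched-chain amino acids, with a fold of 64.9 and 36 distal summits, followed by Slc25a29, a carrier of basic amino acids, with 58.0. The aspartate/glutamate carriers of the malate-aspartate shuttle were alike, with a fold of 27.7 and 114 fragments (94.0 to 137) at Slc25a12 (aralar) and 25.0 and 103 fragments (84.1 to 125) at Slc25a13 (citrin). Away from the boundary they were not alike. Slc25a13, a gene of 176 kb, had 12 interior summits, or 0.681 per 10 kb, with folds of up to 82.3. Slc25a12, of 93.5 kb, had 3, or 0.321 per 10 kb, with folds of up to 9.86. Distal summits numbered 23 at Slc25a13 and 5 at Slc25a12. Slc25a15, the ornithine carrier of the urea cycle, had a boundary fold of 20.7, and its intronless relative Slc25a2 had no boundary summit. Slc25a22 and Slc25a18 both carry glutamate. Slc25a22 had a boundary fold of 18.8 and Slc25a18, the form of astrocytes, had no boundary summit and 6 distal ones. Slc25a38, the glycine carrier of heme synthesis, reached 20.0 with 82 fragments (65.2 to 102).

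Cofactor and nucleotide carriers had boundary summits at 9 of 9 genes, against 62.0% of all genes, with folds from 8.42 to 202. Slc25a42, which brings coenzyme A into the matrix, had the strongest boundary summit of the family, with a fold of 202 and 838 fragments (782 to 897), 230 bp before its start on chromosome 8. A second summit 547 bp before the start had a fold of 106, and 16 further summits lay inside the gene. Slc25a51, the NAD carrier, had a fold of 145 with 602 fragments (555 to 652) 12 bp above its upper end. Slc25a32, which is linked to folate and FAD transport, had 69.3 with 287 fragments (255 to 322). The pyrimidine nucleotide carriers differed, with a fold of 65.7 and 272 fragments (241 to 306) at Slc25a33, against 18.8 and 77 fragments (60.8 to 96.2) at Slc25a36. Slc25a17, a carrier of the peroxisome, had 39.9, Slc25a16, also linked to coenzyme A, had 17.3, and Slc25a26, the S-adenosylmethionine carrier, had 8.42 with 34 fragments (23.5 to 47.5).

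The promoters of 3 carriers with summits near the start are shown with the matches to 1 motif each in capitals. Matches to the other motifs searched, such as GC boxes at Slc25a42 and Slc25a20, are left in lower case. The 250 bases before the start of Slc25a42 (chr8:70212282-70212531, minus strand) held 5 matches to CCAAT, the box bound by NF-Y, more than any other carrier promoter, and the summit with a fold of 202 lay in this window. That of Slc25a20 (chr9:108661886-108662135, plus strand) held the only carrier match to CCGGAAGT, an ETS element, 79 bases before the start. That of Slc25a3 (chr10:91123968-91124217, minus strand) held the GC box GGGCGG 152 bases before the start, and its summit with a fold of 127 lay upstream at -228 bp from the start.
Slc25a42: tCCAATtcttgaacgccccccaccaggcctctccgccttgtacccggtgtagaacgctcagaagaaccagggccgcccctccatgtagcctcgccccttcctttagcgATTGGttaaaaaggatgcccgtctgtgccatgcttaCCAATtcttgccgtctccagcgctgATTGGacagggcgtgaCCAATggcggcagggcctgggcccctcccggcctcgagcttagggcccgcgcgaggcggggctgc
Slc25a20: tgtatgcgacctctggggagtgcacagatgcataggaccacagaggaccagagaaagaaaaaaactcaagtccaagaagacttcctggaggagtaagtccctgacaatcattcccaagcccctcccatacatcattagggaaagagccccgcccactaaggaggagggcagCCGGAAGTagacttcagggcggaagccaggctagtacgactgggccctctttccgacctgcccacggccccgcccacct
Slc25a3: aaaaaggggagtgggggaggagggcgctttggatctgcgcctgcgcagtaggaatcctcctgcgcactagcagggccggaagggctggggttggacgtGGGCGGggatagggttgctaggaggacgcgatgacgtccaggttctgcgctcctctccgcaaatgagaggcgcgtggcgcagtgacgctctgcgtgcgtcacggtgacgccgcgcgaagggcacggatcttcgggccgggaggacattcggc

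Over the 36 carriers with a start in the RefSeq promoter table, 30 (83.3%) had a summit within 1 kb of a start, against 62.2% of 17273 protein-coding genes. The strongest summit lay upstream of the start in 18 of the 30 (60.0%) and in 59.7% of all genes. Its median position was -160.5 bp in the carriers and -61 bp in all genes, not matched on strand. Among plus-strand carriers only Slc25a10 and Slc25a48 had it upstream. Among minus-strand carriers only Slc25a4, Slc25a12, Slc25a22 and Slc25a53 had it downstream. On either strand it thus mostly lay at the higher coordinate, and why was not tested. Where starts of a gene shared the strongest fold, the lowest coordinate was used. The summit of Slc25a14 therefore counts as downstream, though it lay upstream of another start. A summit at the opposite boundary was present in 10 of the 36, with folds of up to 48.1. The share of all genes with such a summit was not computed, so this count is not set against other genes. Each promoter (250 bases before to 50 after the start) was searched on both strands, and matches of different motifs could overlap. GC boxes (GGGCGG) were in the promoters of 30 of 36 carriers, against 49.8% of genes, and CCAAT in 19 of 36, against 42.7%. TGACTCA was in 1 of 36, against 5.44% of genes, TGACGTCA in 2, against 2.58%, and CCGGAAGT in 1, against 5.76%. The core CGCATGCG of the NRF1 element and the element TCAAGGTCA of estrogen-related receptors were in no carrier promoter, against 2.79% and 0.382% of genes. Median GC content was 60.2% in carrier promoters and 56.7% in all.

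**Figure D3:**
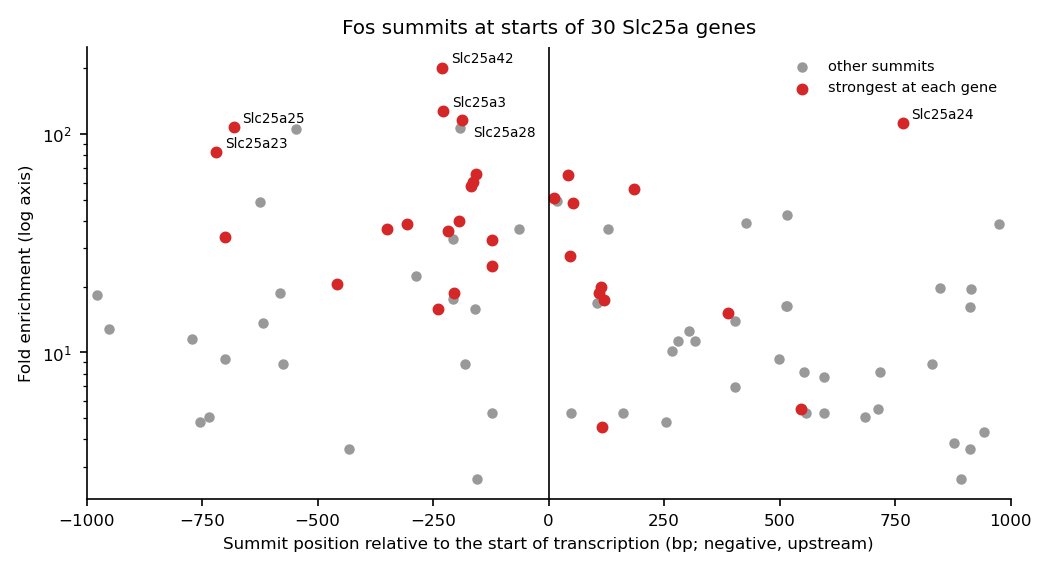
Summits within 1 kb of the start of transcription of the 30 Slc25a genes that had any, by position relative to the start in bp (negative, upstream) and fold enrichment on a log axis. Positions are relative to 1 start per gene, the one with the strongest summit. Red points are the strongest summit of each gene, 18 of them upstream of that start, and grey points are the other summits there.

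Both glutathione carriers had strong boundary summits. Slc25a39 had a fold of 103 with 428 fragments (388 to 471) 8 bp inside its upper end and 36.1 at its listed start, and Slc25a40 had 65.2 with 270 fragments (239 to 304) at a boundary shared with Dbf4. The mitoferrins, which bring iron into the matrix, were far apart. Slc25a28 (mitoferrin-2), which is expressed in many tissues, had a fold of 116 with 481 fragments (439 to 526) and 41 summits in its window. Slc25a37 (mitoferrin-1), the form of developing red cells, had none in its window and was the only carrier with none. The nearest summits on chromosome 14 lay 66677 bp below and 421443 bp above it, with folds of 6.49 and 8.66. The stretch between them also holds Entpd4 and Entpd4b, genes of like name, and how reads shared between copies were placed, or whether regions were filtered out, was not tested.

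Carriers related to the uncoupling proteins each had a boundary summit, with folds of 56.0 at Slc25a14, 44.3 at Slc25a27 and 32.7 at Slc25a30. Slc25a46, an outer membrane protein of mitochondrial dynamics, had 23.8. The less characterised members ranged from 71.0 with 294 fragments (261 to 330) at Slc25a35 and 60.1 at Slc25a34 through 15.9 at Slc25a48 and 15.2 at Slc25a45 down to 4.57 at Slc25a53 and 2.65 at Slc25a47. The summit at Slc25a47, a carrier of liver, had 10 fragments (4.80 to 18.4), the lowest of the list, and lay at its end. Slc25a43 had no boundary summit. It is 18290 bp from Slc25a5 on chromosome X, and all 28 of its window's summits were also counted for Slc25a5. Chromosome X had fewer boundary summits than the autosomes among all genes, 34.4% against 63.3%, while 3 of the 4 carriers on it had one.

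Away from boundaries the carriers had more summits than the middle gene of the genome. Distal summits, which lie at no protein-coding boundary and inside the gene or within 50 kb, were present at 46 of 47 carriers, against 84.0% of all genes, with a median of 22 per carrier and 10 per gene. More than 10 were found at 33 of 47, against 49.2% of all genes. Per 100 kb of window the medians were 16.5 and 7.55. Over the family there were 1249 distinct summits in 645 regions, of which 131 were at a carrier's boundary and 915 were distal. As windows overlap, 110 summits were counted for more than 1 carrier.

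Most of the highest distal counts were made up largely of summits nearer to other genes. Nearness is a distance and assigns no target. Slc25a45 had the most, 61, of which 35 lay in 1 region 17879 bp wide that overlapped the noncoding RNA gene Neat1, and its strongest, at 30932 bp, had a fold of 250 with 1038 fragments (976 to 1103). Slc25a45 was itself the nearest protein-coding gene of 4 of the 61. Slc25a25 followed with 59, of which 28 were nearest to it. Slc25a22 had 45, spread over 10 nearest genes, with 7 nearest to it. Slc25a26 had 41, but 35 of them were nearest to Lrig1, which restrains growth factor receptors in the gut's stem cells, and 6 to Slc25a26. Slc25a33 also had 41, of which 32 were nearest to it, among them a summit 46545 bp away with a fold of 158 and 655 fragments (606 to 707). Slc25a47, Slc25a44 and Slc25a54 had 37, 36 and 35, of which 5 each were nearest to the gene itself. Slc25a39, Slc25a28 and Slc25a10 had 33, 32 and 31, of which 5, 8 and 18 were nearest to them, and Slc25a3 and Slc25a5 had 29 each.

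Among the other carriers, most distal summits were nearest to the carrier at some and few or none at others. The latter included Slc25a11 with 0 of 21, Slc25a41 with 0 of 16 and Slc25a15 with 1 of 17. All 21 distal summits of Slc25a36 and all 13 of Slc25a48 were nearest to those genes, as were 21 of 25 at Slc25a24, 21 of 23 at Slc25a17 and 19 of 24 at Slc25a42. The interior of Slc25a24 held the second strongest distal summit near any carrier, with a fold of 271 and 1124 fragments (1059 to 1192) at position 109156201 of chromosome 3, 12208 bp from a boundary. It had 17 interior summits, or 3.76 per 10 kb. The density was 6.76 at Slc25a25 and 5.73 at Slc25a42, and the highest, 8.61, was at Slc25a22, a gene of 8.13 kb with 7 interior summits. A summit counted for both Slc25a29 and Slc25a47, with a fold of 205 and 852 fragments (796 to 911), lay inside Wars, which encodes the tryptophanyl-tRNA synthetase. At the other extreme were Slc25a14 and Slc25a2 with 1 distal summit each, Slc25a53 with 2, Slc25a16 with 3, Slc25a27 with 4, and Slc25a4, Slc25a12 and Slc25a31 with 5 each.

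**Figure D4:**
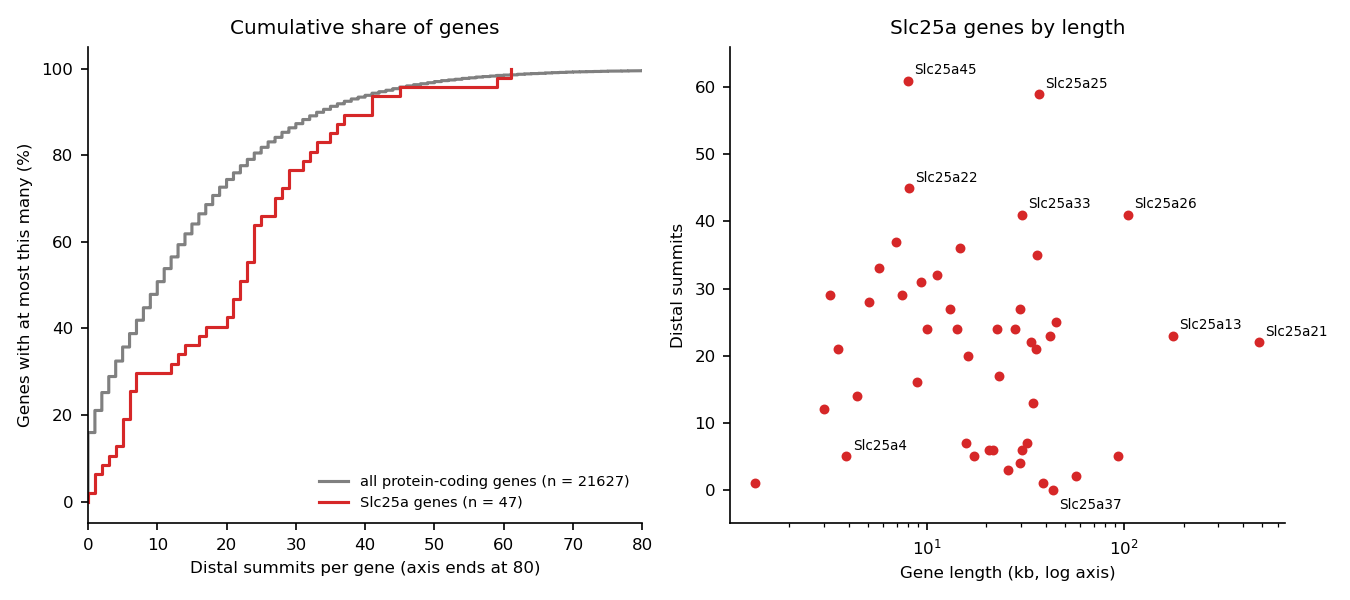
Left, cumulative share of genes by number of distal summits, for the 47 Slc25a genes (red) and all 21627 protein-coding genes (grey), with medians of 22 and 10. Right, distal summits of each Slc25a gene against its length in kb on a log axis; Slc25a45 (61) and Slc25a25 (59) are highest, and Slc25a21, the longest, has 22.

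Other genes of mitochondrial transport, listed by function, also mostly had Fos signal. Of 28 such genes, 27 had a summit at a boundary, against 62.0% of all genes, the exception being Ucp1, the uncoupling protein of brown fat. Distal summits were present at 28 of 28, against 84.0% of all genes, with a median of 18 against 10. The strongest boundary folds were 229 at Mpc2, a subunit of the pyruvate carrier, 130 at Vdac2, a channel of the outer membrane, and 114 at Smdt1, a subunit of the calcium uniporter. Dcaf6 had the same strongest boundary fold as Mpc2, so this summit may lie at a boundary of both genes and is not assigned to either. Sharing with neighbouring genes was not otherwise examined for this list. Mcu, which encodes the pore of the uniporter, had 60 distal summits, and the sodium/calcium exchanger gene Slc8b1 had 57. Ucp2, the uncoupling protein of many tissues, had a boundary fold of 83.0 and 8 boundary summits, and its neighbour Ucp3, the muscle form, had 3.61. Ucp2 and Ucp3 were chosen here after their values were seen.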

How the data were processed

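For the Fos CUT&Tag libraries of mouse colonic mucosa, 1 deposited list of summits was analysed. Bowtie2, MACS2 and mm10 are named in the submitters' processing notes, without version, command or order. The labels do not say which of the 4 libraries it covers or whether their reads were pooled. The deposited fold is a linear ratio of summit pileup over background. The deposited −log10 p-value and −log10 q-value are the caller's statistics, with a lowest −log10 q of 1.80. The authors' score is the integer part of 10 times −log10 q. A summit is the deposited region start plus the deposited offset in bases, an other value. All folds were whole multiples of 0.241 within 0.05 steps, as (pileup + 1) over (background + 1) gives with a background of 3.16 fragments, and Poisson p-values recomputed from the pileup matched within 0.01 at 100% of 167414 summits. The depth of each library is unknown.

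Genes and promoters came from RefSeq (GRCm38.p6, the assembly named mm10), with strand for 36 of 47 members only, and positions are 1-based. Counting was checked on simulated summits. Members and lists were chosen with earlier results of these data known. No test was run: lists are described by counts and medians beside all genes. The rule for named genes took every member, the 12 with the highest boundary fold, the 12 with the most distal summits, the 5 strongest distal summits, and of other lists the 3 highest by either measure and those without a boundary summit. Some genes that it takes are counted in the totals but not reported singly here. Alternatives were stricter q, 1 summit per region, no regions wider than 3000 bp, other boundary and window sizes, starts only, genes with boundaries over 2 kb apart, the nearest gene only, and windows around both boundaries. Python 3.11.15, pandas 2.3.3 and scipy 1.17.1 were used.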

Additional observations from a re-analysis of the deposited data

How the results depend on the processing

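Of 36 recomputed values over 5 results, 26 stayed within 1.5 times the value reported. The number of carriers with a boundary summit, 41 of 47, ran from 34 to 42 where all 47 were counted. It was 34 without regions wider than 3000 bp, when Slc25a39, Slc25a10, Slc25a29, Slc25a23, Slc25a25, Slc25a51 and Slc25a33 had none, beside 58.8% of all genes. Fewer genes enter with starts only, 30 of 36, and with boundaries apart from other genes, 25 of 28 (51.9% of all such genes). The median of 22 distal summits was 12 with −log10 q of at least 10, 12 with 1 summit per region, 9 with windows of 20 kb, 35 with windows of 100 kb and 5 when each summit went to its nearest gene, and the medians of all genes were then 5, 7, 5, 19 and 2. The 1249 distinct summits became 808 with −log10 q of at least 10, 644 with 1 summit per region, 689 with 20 kb and 2060 with 100 kb. These settings count fewer or more summits by construction. The median strongest boundary fold, 48.1, ran from 37.5 to 48.3 and the number of carriers with a distal summit from 44 to 46. No paired analysis was possible because the list has no column per library.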

Other observations

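Genes that govern the making of mitochondria also had Fos signal. All 14 regulators of mitochondrial biogenesis on the list had a boundary summit, against 62.0% of all protein-coding genes. Their distal summits had a median of 27.5, against 10, in windows with a median of 154 kb, against 117 kb. The strongest boundary folds were 185 at Esrra, a nuclear receptor that acts with PGC-1 coactivators on oxidative genes, 120 at Yy1 and 105 at Gabpa, an ETS factor of respiratory chain genes. Sharing of boundary summits with neighbouring genes was not examined for this list, so these folds are not assigned to the regulators. The most distal summits, 98, were at Ppargc1b, which encodes the coactivator PGC-1beta, followed by Pparg with 83 and Ppard with 66. Pparg, a nuclear receptor that is abundant in colonocytes, had a distal fold of 272. Tfam, which packages mitochondrial DNA, had a boundary fold of 19.7 and 1 distal summit.

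Slc25a37 lay in a stretch of 532 kb of chromosome 14 without a summit, from 69175171 to 69706987, which held 9 protein-coding genes, among them Entpd4 and Entpd4b. The median distance between neighbouring summits was 1337 bp, and 546 of 178961 such distances (0.305%) were longer than this stretch. Read placement there was not tested.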
